A study of Mus musculus with 11 samples.

Results

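The genes described here are 6 markers that the liver field uses for biliary epithelial cells and bipotent progenitors: Sox9, Sox4, Epcam, Spp1, Cd24a and Prom1. They were taken from the deposited expression table by their symbols, keratins being left out of the set, and made up 6 of its 20893 genes. The table holds whole livers of C57BL/6 mice profiled by bulk RNA-seq in 11 libraries, 1 per liver. Every mouse carried a reverse tetracycline transactivator with an EGFP reporter at the ROSA26 locus (ROSA26-rtTA-IRES-EGFP) and was fed doxycycline. The 4 control livers were of the WT genotype, without the YAP transgene, and had 7 days of doxycycline. The induced livers carried tetYAP, a doxycycline-driven transgene for a constitutively active form of YAP, and had 3 days (4 livers) or 7 days (3 livers) of doxycycline. The 3-day livers therefore differ from the controls in the length of doxycycline feeding as well as in the transgene. In the study's mice the transactivator was released by a Cre recombinase under the Albumin promoter, which limits the transgene to cells with a history of Albumin expression, mostly hepatocytes. The labels do not say whether the controls also carried this Cre, and they give neither sex nor age.

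YAP is the transcriptional coactivator that the Hippo kinases hold out of the nucleus, and it reaches DNA mainly through TEAD factors. In adult liver its activity is highest in bile duct cells and low in hepatocytes. Sox9 and Sox4 are SOX family transcription factors that act in bile duct formation, and Sox9 marks ducts and periportal hepatocytes in the adult. Epcam is an adhesion molecule of duct epithelium. Cd24a and Prom1 (CD133) are surface proteins of ducts and of injury-associated progenitors, and Spp1 encodes osteopontin, a secreted phosphoprotein made by cholangiocytes and by macrophages.

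A few facts of the whole series bear on the values. Reads on genes ran from 1251464 to 5496424 across control libraries, from 2660379 to 3681564 at 3 days and from 5312694 to 5943138 at 7 days, so 3 of the 4 deepest libraries were 7-day livers. The labelled tissue was borne out by its markers, Alb among them at 234 to 918 eRPKM (reads per kilobase of exon, scaled to the depth of the library). Alb had between 2417 and 3102 reads in every library, although depth varied 4.75-fold, and how duplicate reads were handled is not stated for these libraries. The 6 genes lay under the read density of Alb, which had 1145 to 1469 reads per kilobase. The nearest was Spp1 with 45.0 to 571, the highest being in 7-day liver 2. Whether the reads of Spp1 were affected in the same way was not tested. The X-inactivation transcript Xist outnumbered the Y-linked Ddx3y in 2 of 4 control, 2 of 4 3-day and 3 of 3 7-day libraries, so the 7-day group had no counterpart of the other kind. Values below are eRPKM on a linear scale unless a log2 difference is named. Changes were tested with limma on log2(eRPKM + 0.5) over 14244 genes, which compresses the change of low genes, and a call required an absolute log2 difference over 0.5 and an adjusted p (Benjamini-Hochberg) under 0.01. All 6 genes passed the filter on low values, which asked for 0.5 eRPKM in at least 3 libraries.

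In control livers the 6 genes were spread over more than an order of magnitude. Spp1 stood highest at 38.7 ± 5.62 eRPKM (SD, n = 4), with no overlap with any other member. Cd24a followed at 5.25 ± 1.65, Sox4 at 2.82 ± 1.21, Sox9 at 2.79 ± 1.23 and Prom1 at 2.77 ± 2.48 (SD, n = 4 each), and the ranges of these neighbours overlapped. Epcam was lowest at 0.626 ± 0.604 (SD, n = 4). After 7 days the order was Spp1 at 67.4 ± 25.1, Prom1 at 19.9 ± 4.71, Sox4 at 12.9 ± 3.13, Sox9 at 5.67 ± 1.83, Cd24a at 5.23 ± 1.95 and Epcam at 1.66 ± 0.425 (SD, n = 3 each). The ranges of Prom1 and Sox4 overlapped at 7 days, as did those of Sox9 and Cd24a.

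**Figure D1:**
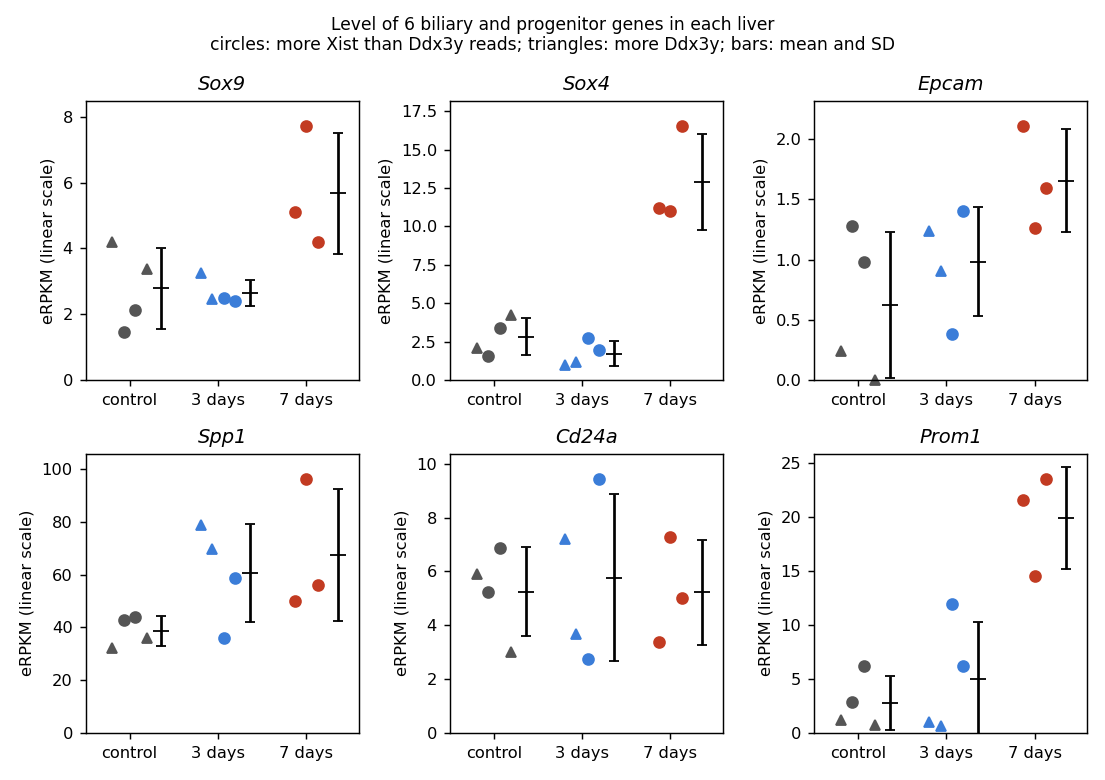
Level of each gene in every liver, in eRPKM on linear axes that start at 0 and differ between panels, with 4 control, 4 3-day and 3 7-day livers. Circles mark libraries with more Xist than Ddx3y reads and triangles the others, and the bars give the mean and SD, cut at 0 for Prom1 at 3 days. Sox4 and Prom1 stand apart in the 7-day livers (10.99 to 16.5 and 14.5 to 23.5 eRPKM), while the 3 groups of Cd24a overlap.

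After 7 days of YAP induction, 2 of the 6 genes, Sox4 and Prom1, rose and none fell. The other 4 were not called: Sox9, Epcam and Spp1 had positive log2 differences with adjusted p from 0.0318 to 0.0599 (limma), and Cd24a had a difference near 0. Over all tested genes 23.8% were called at 7 days against control, 18% upward and 5.77% downward, so that being called upward was common in these livers. At 3 days none of the 6 was called, against a background of 0.0421% (6 genes of 14244, with 1718 at an unadjusted p under 0.05). Between 3 and 7 days, where 19.3% of genes were called 14% upward and 5.31% downward, only Sox4 of the 6 was called. The groups of Sox4, Spp1 and Prom1 did not overlap at 7 days against control, and those of Sox9, Sox4 and Prom1 at 7 against 3 days, all with the 7-day livers higher. Over all tested genes such separation was found in 36.7% (higher) and 13.3% (lower) for the former and in 31.3% and 13.8% for the latter. At 3 days against control no member separated, beside 3.38% higher and 2.25% lower over all genes. The 7-day and 3-day comparisons share the control libraries, and the last comparison shares libraries with both. In whole liver a larger share of a cell type and more RNA per cell cannot be told apart.

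Sox4 was the gene with the clearest separation. It was measured at 2.11, 1.55, 3.41 and 4.203 eRPKM in control livers 1 to 4. The 3-day livers had 0.986, 1.18, 2.77 and 1.96, and the 7-day livers 11.2, 10.99 and 16.5. Every 7-day liver was thus above every other liver, and the 3-day livers overlapped the controls at their lower end. These values rest on 16 to 26 reads per control library, 8 to 31 at 3 days and 183 to 267 at 7 days. The mean at 7 days was 4.58 times that of the controls, a log2 difference of 2.07 ± 0.35 (SE; 95% confidence interval 1.31 to 2.82; limma adjusted p = 0.000609). Against the 3-day livers the ratio of means was 7.49 and the log2 difference 2.64 ± 0.35 (SE; limma adjusted p = 0.000139). At 3 days Sox4 differed from control by -0.57 on the log2 scale, with an interval of -1.28 to 0.13 and an adjusted p of 0.507 (limma). Exact two-sided permutation tests of the 7-day livers gave p = 0.0571 against either group, the smallest that 3 livers against 4 allow. All 27 alternative analyses kept both calls of Sox4, with log2 differences of 1.55 to 2.51 against control.

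Prom1 showed the largest log2 difference from control at 7 days of the set. In control livers 1 to 4 it stood at 1.18, 2.90, 6.23 and 0.768 eRPKM. At 3 days the livers had 1.01, 0.635, 11.9 and 6.21, and the 7-day livers 21.6, 14.5 and 23.5. The 7-day livers did not overlap the others, while the earlier livers fell into low and high ones. The mean at 7 days was 7.17 times that of the controls, a log2 difference of 2.92 ± 0.77 (SE; 95% confidence interval 1.26 to 4.57; limma adjusted p = 0.00953), just inside the threshold. Against the 3-day livers the log2 difference was 2.53 ± 0.77 (SE; limma adjusted p = 0.0222), which is not a call. At 3 days it was 0.39, with an interval of -1.15 to 1.92.

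The earlier livers of Prom1 divided by the Xist and Ddx3y reads of their libraries. Among control and 3-day libraries, the 4 with more Xist had 2.90 to 11.9 eRPKM and the 4 with more Ddx3y had 0.635 to 1.18, without overlap. As all 3 of the 7-day libraries had more Xist, the pooled comparison sets them partly against libraries of the other kind. Within the libraries with more Xist, an analysis chosen after seeing the data, Prom1 differed by 2.06 on the log2 scale between 7 days and control (limma adjusted p = 0.00408, 3 against 2 livers). Between 7 and 3 days the same libraries gave 1.13 (limma adjusted p = 0.0603). The 7-day call was lost when 1 of several libraries was left out: the limma adjusted p was 0.0262, 0.0151 and 0.0308 without control liver 1, 2 or 4, and 0.0101 without 3-day liver 4. It was 0.0342, 0.0232 and 0.0385 without 7-day liver 1, 2 or 3. Without 3-day liver 3, the highest of its group, Prom1 was called against the 3-day livers (log2 difference 3.14, limma adjusted p = 0.00335), and its 3-day difference from control was -0.23.

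Sox9 was measured at 4.204, 1.45, 2.14 and 3.37 eRPKM in the controls. At 3 days it had 3.25, 2.45, 2.48 and 2.42, and at 7 days 5.11, 7.71 and 4.19. The lowest 7-day liver lay just under the highest control, so these groups overlapped, whereas all 7-day livers were above the 3-day ones. The mean at 7 days was 2.03 times the control mean, with a log2 difference of 0.95 ± 0.32 (SE; 95% confidence interval 0.26 to 1.64; limma adjusted p = 0.0318). Against 3 days the log2 difference was 0.94 (limma adjusted p = 0.0357), and neither is a call. At 3 days the difference from control was 0.01 with an interval of -0.63 to 0.65. Within the libraries with more Xist, where the controls had 1.45 and 2.14 eRPKM, the 7-day log2 difference was 1.404 (limma adjusted p = 0.0112).

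Spp1, the osteopontin gene, had 32.0, 42.8, 43.8 and 36.1 eRPKM in the controls. It reached 78.8, 69.6, 35.8 and 58.6 at 3 days and 49.9, 96.2 and 56.2 at 7 days. All 7-day livers were above all controls, and 3 of 4 3-day livers were as well. The mean at 7 days was 1.74 times the control mean, with a log2 difference of 0.74 ± 0.27 (SE; 95% confidence interval 0.15 to 1.34; limma adjusted p = 0.0477). The 3-day log2 difference was 0.60 (interval 0.05 to 1.15, limma adjusted p = 0.371), and that between 7 and 3 days 0.15 (limma adjusted p = 0.696). In the libraries with more Xist the log2 difference from control was 0.08 at 3 days (limma adjusted p = 0.979) and 0.57 at 7 days (0.194). Without 7-day liver 2, the highest of all, the 7-day difference was 0.46 (limma adjusted p = 0.227).

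Epcam was near the limit of detection. The controls had 0.242, 1.28, 0.978 and 0 eRPKM, on 2, 15, 5 and 0 reads, and the 0 of control liver 4, the shallowest library, allows up to 3 reads or 1.13 eRPKM. The 3-day livers had 1.24, 0.908, 0.384 and 1.41 eRPKM and the 7-day livers 2.11, 1.27 and 1.60, on 16 to 24 reads. The lowest 7-day liver and the highest control overlapped. The 7-day log2 difference was 1.10 ± 0.43 (SE; 95% confidence interval 0.17 to 2.03; limma adjusted p = 0.0599), and in the libraries with more Xist it was 0.39 (limma adjusted p = 0.498).

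Cd24a did not separate the groups. It had 5.90, 5.24, 6.88 and 2.99 eRPKM in the controls, 7.22, 3.68, 2.76 and 9.43 at 3 days, and 3.39, 7.28 and 5.03 at 7 days. The ranges of the 3 groups overlapped throughout, and the spread was widest at 3 days. The deposited column names of 3-day livers 1 and 4 and 7-day liver 2 carry an MF mark whose meaning is not given, and these livers had the highest Cd24a of their groups (7.22 and 9.43, and 7.28 eRPKM). In an analysis without them, chosen after seeing the data, Cd24a differed from control by -0.59 at 3 days and -0.26 at 7 days (limma adjusted p = 0.54 and 0.585). Sox4 kept both calls without these 3 livers, while the 7-day call of Prom1 against control (limma adjusted p = 0.0224) was lost. In the gene lists described further on, the 7-day calls against control of Krt7, Slc10a2, Cd9, Itga4 and Hapln1 were also lost. So were those of the cell type markers Cd5l, Hbb-bs, Pck1, S100a9 and Tat. With all libraries the 7-day log2 difference of Cd24a from control was -0.01, with an interval of -0.88 to 0.86 (limma adjusted p = 0.988). Changes of up to about that size in either direction are not excluded, and a call would have needed a larger difference. Exact two-sided permutation tests of 7 days against control gave p = 0.0571 for Prom1 and Spp1, 0.114 for Sox9 and Epcam and 0.971 for Cd24a.

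**Figure D2:**
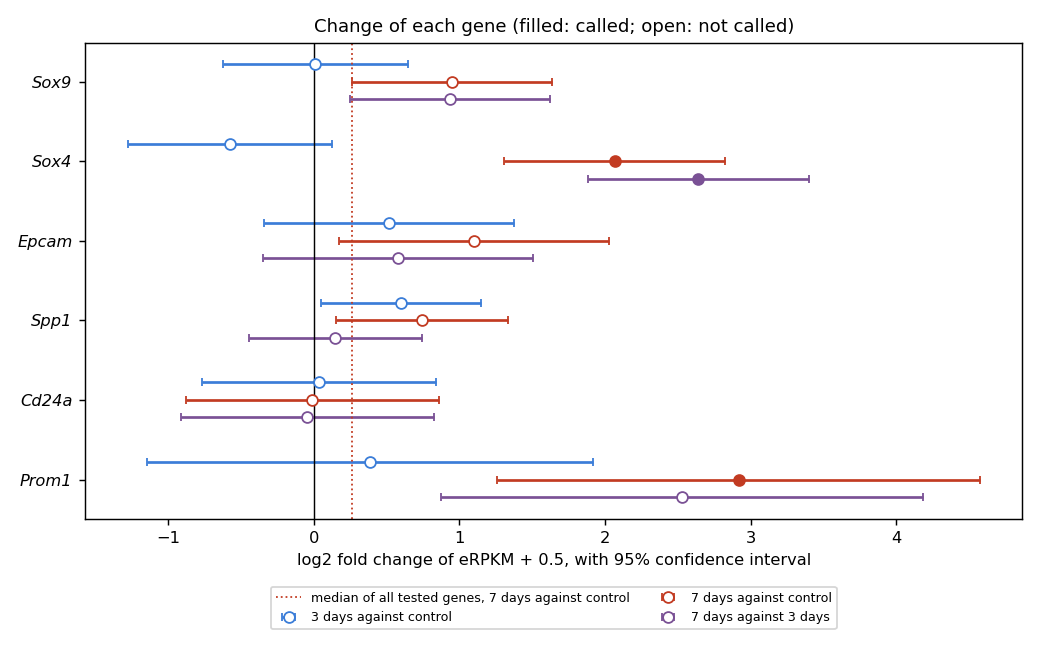
Log2 difference of eRPKM + 0.5 for each gene in the 3 comparisons, with 95% confidence intervals from limma (4 control, 4 3-day and 3 7-day livers). Filled points are called, open points are not, and the dotted line is the median of all tested genes at 7 days against control (0.26). Sox4 is called in both 7-day comparisons and Prom1 against control only.

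The scaling of the libraries bears on these differences. The median tested gene was itself 0.26 higher on the log2 scale at 7 days than in controls, and 0.26 higher than at 3 days. Of the genes called at 7 days against control 75.7% rose, against 60.3% after median-ratio scaling and 50.5% after quantile normalization. For 7 against 3 days the shares were 72.5%, 56.3% and 50.1%. With median-ratio scaling, which brought the median at 7 days against control to 0.02, the log2 differences from control were 1.80 for Sox4 (limma adjusted p = 0.00293), 2.68 for Prom1 (0.0163), 0.70 for Sox9 (0.116), 0.96 for Epcam (0.101) and 0.47 for Spp1 (0.215). Cd24a stood at -0.26 (0.629). Sox4 thus remained called and Prom1 did not. Quantile normalization gave 0.30 for Sox9 (limma adjusted p = 0.528), 0.62 for Epcam (0.272), 0.88 for Spp1 (0.0354) and -0.66 for Cd24a (0.2), with Sox4 at 1.55 (0.00714) and Prom1 at 2.55 (0.0159).

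Gene positions follow the mouse build mm9 (GENCODE M1). Sox9 (ENSMUSG00000000567) spans chromosome 11 from 112643538 to 112649074 on the plus strand, and Sox4 (ENSMUSG00000076431) chromosome 13 from 29040788 to 29045582 on the minus strand. Epcam (ENSMUSG00000045394) lies on chromosome 17 from 88035319 to 88050446, Spp1 (ENSMUSG00000029304) on chromosome 5 from 104864137 to 104870069 and Cd24a (ENSMUSG00000047139) on chromosome 10 from 43298975 to 43304068, each on the plus strand. Prom1 (ENSMUSG00000029086) runs from 44384864 to 44493271 on the minus strand of chromosome 5. Exons of Sox4 overlap Gm17419 and those of Prom1 overlap Gm16401, each on the opposite strand. Reads were aligned without strand information, so reads of these pairs cannot be told apart.

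The upstream sequences of Sox4 and Prom1, the genes that were called, are shown because YAP acts through TEAD factors, whose core site is GGAATG. RefSeq promoter windows (build GRCm38.p6, 250 bases before each start) were found for 4 of the 6 genes, in 6 windows. The letters GGAATG, or CATTCC for the other strand, occurred in the window of Sox4 and in none of those of Epcam, Spp1 and Prom1. They occur in 12.6% of the 32851 windows of the table. Each window is given 5′ to 3′ along the gene, with the motif in capitals, which in Sox4 begins 168 bases before the start.
Sox4, chr13:28953700-28953949, minus strand: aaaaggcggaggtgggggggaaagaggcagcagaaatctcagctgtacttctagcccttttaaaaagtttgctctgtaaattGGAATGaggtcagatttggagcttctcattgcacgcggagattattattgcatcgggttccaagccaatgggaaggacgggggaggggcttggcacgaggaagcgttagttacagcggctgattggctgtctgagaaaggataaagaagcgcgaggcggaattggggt
Prom1, first window, chr5:44101737-44101986, minus strand: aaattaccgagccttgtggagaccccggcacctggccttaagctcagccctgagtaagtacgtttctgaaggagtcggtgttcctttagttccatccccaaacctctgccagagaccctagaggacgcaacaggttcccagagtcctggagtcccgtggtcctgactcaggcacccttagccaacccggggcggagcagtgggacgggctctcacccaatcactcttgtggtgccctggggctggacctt
Prom1, second window, chr5:44094769-44095018, minus strand: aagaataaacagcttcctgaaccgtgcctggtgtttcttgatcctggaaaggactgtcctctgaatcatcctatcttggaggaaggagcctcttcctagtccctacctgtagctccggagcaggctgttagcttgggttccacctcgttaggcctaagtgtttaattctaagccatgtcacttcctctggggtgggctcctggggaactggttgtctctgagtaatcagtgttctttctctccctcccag
A match of these letters is a description of the sequence only.

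Other genes of bile duct epithelium did not move in 1 direction at 7 days. Of 23 cholangiocyte genes 19 were tested: 4 rose, 2 fell and 13 were not called. Over all tested genes 18% were called upward and 5.77% downward, so 4 of 19 upward was near that share. The median log2 difference of the list was 0.53 beside 0.26 over all tested genes. Bicc1, an RNA-binding protein whose loss gives cystic ducts, rose most, from 1.35 ± 0.120 eRPKM (SD, n = 4) in controls to 33.7 ± 1.42 (SD, n = 3), a log2 difference of 4.21 (limma adjusted p = 2.25e-07). Pkhd1, which encodes fibrocystin of the primary cilium, rose from 6.58 ± 2.67 to 28.6 ± 2.78 eRPKM (SD, n = 4 and 3). The collagen receptor kinase Ddr1 rose by a log2 difference of 2.09 and the epithelial ETS factor Elf3 by 1.94 (limma adjusted p = 0.000392 and 0.00125). Elf3 had 2 to 7 reads in controls and was not called after quantile normalization or with depth as a covariate. The genes that fell were Onecut2, a factor of early duct specification that hepatocytes also express, and Slc10a2, the apical bile acid transporter of ducts. They fell by 1.24 and 1.25 on the log2 scale (limma adjusted p = 0.000486 and 0.00167), and the call of Slc10a2 was lost without 7-day liver 2. Of the 4 simple keratins, Krt7, a duct keratin, rose by a log2 difference of 1.51 (limma adjusted p = 0.00221), and this call was lost without 7-day liver 1. Krt7 was near the limit of detection, with 0 to 5 reads in controls and 16 to 18 at 7 days. Its call was also lost with 0.1 in place of 0.5 added before the log and with depth as a covariate. Krt19, the other duct keratin, had 1.57 (limma adjusted p = 0.0172) on 1 to 8 reads in controls, and Krt8 and Krt18, which hepatocytes also make, had 0.65 and 0.52. Quantile normalization called 3 of these keratins as higher.

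Of 15 fetal liver and progenitor genes 11 were tested at 7 days, of which 3 rose and 1 fell, beside 18% and 5.77% of all tested genes. The median log2 difference was 0.20, which turned to -0.03 with median-ratio scaling and -0.47 with quantile normalization. The counts stayed at 3 and 1 under both. The oncofetal glypican Gpc3 rose from 1.80 ± 1.77 eRPKM in controls to 83.1 ± 5.29 at 7 days (SD, n = 4 and 3), with 1.31 ± 0.535 (SD, n = 4) at 3 days. Tnfrsf12a (Fn14), the TWEAK receptor linked to progenitor expansion, was the only gene of these lists called at 3 days. It had 8.67 ± 1.90 eRPKM in controls, 27.3 ± 5.64 at 3 days and 127 ± 11.3 at 7 days (SD, n = 4, 4 and 3), with log2 differences from control of 1.60 and 3.82 (limma adjusted p = 0.00551 and 2.25e-07). The 3-day call of Tnfrsf12a held in 12 of 27 alternatives and the 7-day call in 27 of 27. The 3-day call was kept without control liver 4 or 3-day liver 1 and lost without any other single library. Itga6, a laminin-binding integrin, rose by a log2 difference of 1.61, while Lgr5, the Wnt receptor component of pericentral and injured liver, fell by 2.41 (limma adjusted p = 0.000386 and 3.16e-05). The classical fetal genes Afp, Dlk1, Igf2 and H19, picked out after their values were seen, had log2 differences of 0.11, -0.34, -0.29 and 0.36 and were not called. Afp had means of 5.74 eRPKM in controls and 5.57 at 7 days. Dlk1, Igf2 and H19 were barely detected, at 0.38, 0.47 and 0.35 in controls and 0.24, 0.33 and 0.59 at 7 days. These levels are near the 0.5 added before the log, which compresses their change.

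**Figure D3:**
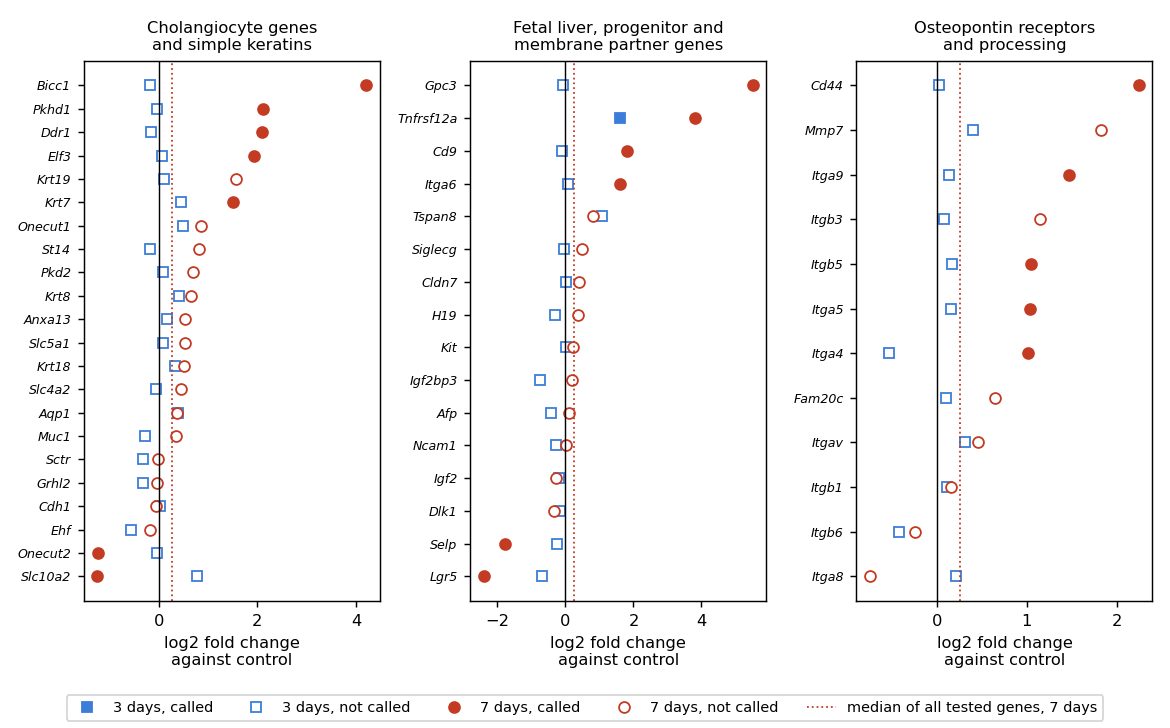
Log2 difference from control for tested genes of the duct (1 left out), progenitor and osteopontin lists, as squares at 3 days (4 livers) and circles at 7 days (3 livers), each against 4 controls. Filled symbols are called, and the dotted line is the 7-day median of all tested genes. The 3-day squares are open except for Tnfrsf12a, and the 7-day calls include both rises such as Gpc3 and falls such as Lgr5.

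Among genes tied to single members are the receptors and processing enzymes of osteopontin. Of these 17 genes 12 were tested at 7 days, and 5 rose, none fell and 7 were not called, with a median log2 difference of 1.03, beside 18% of all tested genes called upward and a median of 0.26. Cd44, a hyaluronan and osteopontin receptor, rose from 7.56 ± 2.79 to 36.2 ± 5.75 eRPKM (SD, n = 4 and 3), a log2 difference of 2.24 (limma adjusted p = 4.92e-05). The integrin subunits Itga9, Itgb5, Itga5 and Itga4 rose by log2 differences of 1.47, 1.04, 1.03 and 1.02, and Itga4 kept its call in 14 of 27 alternatives. Both scalings ended the call of Itga4, as did leaving out control liver 1 or 4 or any of the 7-day livers. Of the membrane partners of Epcam, Prom1 and Cd24a, 5 were tested. The tetraspanin Cd9 rose by 1.82 (limma adjusted p = 0.00371) and Selp, an endothelial selectin that binds CD24, fell by 1.76 (limma adjusted p = 0.0035). The call of Cd9 was lost without 7-day liver 1, 2 or 3, and that of Selp without those or without control liver 1 or 2. Of 10 further SOX genes tested none was called against control, with a median log2 difference of -0.31. Median-ratio scaling called 1 of them and quantile normalization 2 as lower. Sox18, an endothelial factor, rose between 3 and 7 days by a log2 difference of 1.24 (limma adjusted p = 0.00408), a call that both of these scalings ended, as did leaving out 7-day liver 2 or 3. Of 8 cartilage targets of Sox9 4 were tested and 1 rose, Hapln1, a cartilage link protein, by 1.67 (limma adjusted p = 0.00336). Its level was 0.476 ± 0.376 eRPKM (SD, n = 4) in controls, on 0 to 16 reads, and 2.45 ± 0.728 (SD, n = 3) at 7 days. The call was lost without 7-day liver 1 or 2. It was also lost with 0.1 added before the log, with quantile normalization and with depth as a covariate. Exons of Bicc1, Pkhd1, Ddr1, Elf3, Tnfrsf12a, Cd9, Itga4 and Selp overlap another annotated gene, and their values may include its reads. The same holds for Igf2 and H19 above and for Csf1r, Nr1i3, Ttr, Fgfr1, Itpr3, Sybu and Zbtb8os below.

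Markers of other cell types moved over the same comparison, in which 18% of all tested genes were called upward and 5.77% downward. Of 10 tested macrophage genes 8 rose and none fell at 7 days. Their summed level lay between 246 and 510 eRPKM in controls, between 318 and 578 after 3 days and between 1021 and 1108 after 7 days. Cd68 rose by a log2 difference of 2.61 and Clec4f, of resident Kupffer cells, had 0.87 (limma adjusted p = 0.000184 and 0.0163). Macrophages can express Spp1, and their part in its level was not tested. Of 9 endothelial genes 3 rose, with a summed level of 76.1 to 149 in controls and 199 to 238 eRPKM at 7 days. Of 11 stellate and fibroblast genes none rose and 1 fell, with sums of 186 to 261 in controls and 135 to 164 at 7 days. Of 18 hepatocyte genes none rose and 8 fell, with sums of 2984 to 7651 and 2056 to 2343. These sums were carried by genes whose read numbers hardly followed depth. Apob had 15219 to 20940 reads in controls and 19931 to 20295 at 7 days, and Alb 2417 to 3102 and 2840 to 2934, so that the shallowest library, control liver 4, had the highest sum. Control liver 2, with 5496424 reads on genes, had the lowest control sum, 2984 eRPKM, where the 7-day livers had 5312694 to 5943138 reads. Not every gene of the list kept its read number: Cyp2e1 had 1721 to 2353 reads in controls and 968 to 1029 at 7 days. The part of this behaviour of the reads in the lower hepatocyte sum at 7 days was not tested. Of 6 tested neutrophil genes 2 rose, of 7 T cell genes 1 rose, of 5 B cell genes none was called and of 5 erythroid genes 2 fell. Several of these calls rested on single libraries. Both erythroid calls, Hbb-b1 and Hbb-bs, were lost without any 1 of the 7-day livers. The T cell call, Cd4, held in 18 of 27 alternatives. It ended with median-ratio scaling, with quantile normalization and without control liver 3 or 7-day liver 3. The neutrophil gene S100a9 was called in 14 of 27 alternatives. The hepatocyte falls of Tat and Pck1 held in 10 and 16 of 27, and ended under both scalings and without any 1 of the 7-day livers. Those of Ass1, Cyp2e1, Nr1i3 and Ttr held in all 27. The macrophage gene Cd5l (16 of 27) and the endothelial gene Lyve1 (20 of 27) lost their calls with median-ratio scaling. Cd5l also lost its call without any 1 of the 7-day livers, and Lyve1 without 7-day liver 1 or 3. Cd68, Csf1r, Cd163, Timd4, Marco, Itgam and Cdh5 kept theirs in all 27. These genes were picked out after their values were seen. All 12 proliferation genes rose at 7 days (median log2 difference 3.54) and none was called at 3 days (median 1.83). No list had a marker at 0 in every library, and the part of these cells in the levels of the 6 genes was not tested.

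**Figure D4:**
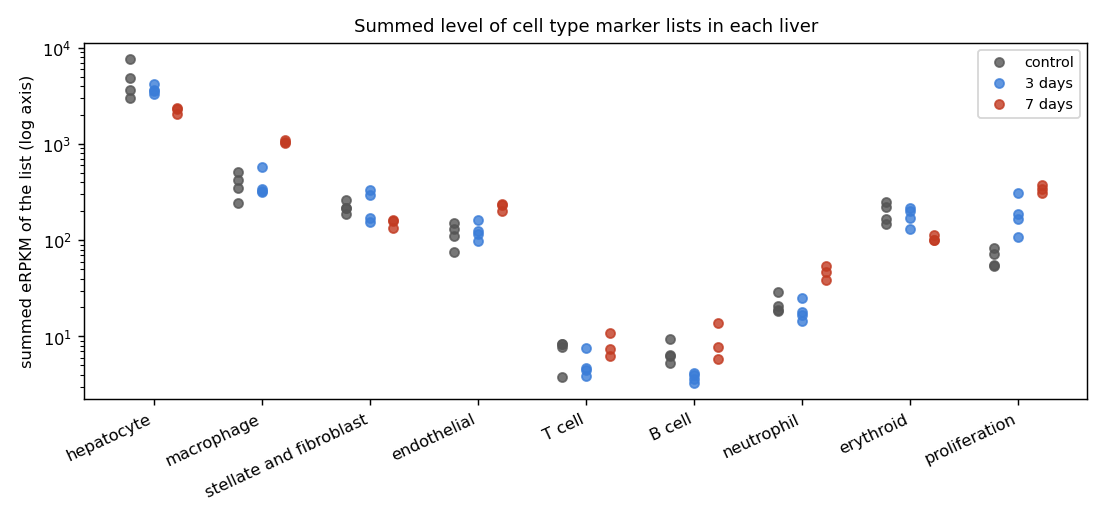
Summed eRPKM of each marker list in every liver on a log axis, coloured by group (4 control, 4 3-day and 3 7-day livers). Macrophage sums lie at 1021 to 1108 at 7 days, above all other livers, and hepatocyte sums at 2056 to 2343, below them, but the latter are carried by genes such as Alb and Apob with nearly constant read numbers, so they also follow depth.

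The 6 genes did not share a profile over the 11 livers. Likeness was measured as the root mean square difference between log2 profiles, each centred on its own mean, over 12561 genes with a mean of at least 1 eRPKM. Between members it ran from 0.516 for Spp1 and Cd24a to 1.68 for Cd24a and Prom1. Spp1 and Cd24a lay 0.478 and 0.509 from a profile that does not vary, so the 2 were no closer to each other than to such a profile. The genes most like Sox9 were Zfp382, Fgfr1 and Lmo4 at 0.211, 0.231 and 0.252, and those most like Sox4 were Itpr3, Ubash3b and Kif21b at 0.229, 0.276 and 0.335. Closest to Spp1 were Adamts5, Armcx6 and Anapc10 at 0.165, 0.235 and 0.255, and closest to Prom1 were Bmper, Sybu and Acot2 at 0.391, 0.497 and 0.547. Epcam was nearest to Rpp21, Rnf113a2 and Dpm2 at 0.266, 0.292 and 0.315, and Cd24a to Mxd4, Zbtb8os and Unc119b at 0.272, 0.276 and 0.277. The median over all compared genes was 0.650 for Sox9, 1.14 for Sox4, 0.728 for Epcam, 0.612 for Spp1, 0.651 for Cd24a and 1.54 for Prom1. The livers share their group and their depth, so these values describe the profiles only.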

How the data were processed

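Per the labels and the study's methods, the authors aligned paired reads to mm9 with TopHat2 2.0.8 without strand information, counted them on genes (the submitters' processing notes name featureCounts 1.4.5-p1), and deposited eRPKM, a kind of RPKM, for each liver. The deposited table also holds the authors' own DESeq2 comparison, not used here: a mean signal over libraries, a log2 fold change and adjusted p-values made by the authors. The members and gene lists were chosen with earlier results of these data known. Reads were recovered from the eRPKM steps: all 177553 values above 0 (100%) lay within 0.1 of a whole read. They served for depth and as an alternative.

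Groups came from the sample titles. All 3 groups were fitted together in limma 3.58.1 under R 4.3.3 (functions lmFit and eBayes, the latter with a mean-variance trend), without covariates. Input was log2(eRPKM + 0.5) of every gene that reached 0.5 eRPKM in 3 or more libraries, and p-values were adjusted over all tested genes. The pipeline was tested on simulated data. Named genes were the 6 members, called genes of the lists (the 4 with the largest change first), defining cell type markers, and the 3 genes nearest to each member in profile. Single genes were also tested with exact two-sided permutation tests (smallest p 0.0286 for 4 against 4 and 0.0571 for 3 against 4). Each library is 1 liver, and p-values measure the spread between livers. Read limits cover counting error only. Alternatives were other pseudocounts, filters, scalings, covariates, a replicate block, limma-voom on recovered reads, 2-group fits, a laxer threshold and leaving out each library. For the duct list, 1 gene is counted but not reported here by name.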

Additional observations from a re-analysis of the deposited data

Results flagged for a closer look

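Sox9 in 3-day liver 1 stood apart from the other 3 livers of its group: its gap to the nearest of them was 0.923 of the range of the group, above Dixon's limit for 4 samples. Its Sox9 reads, 37, were close to the 38, 39 and 38 of the others. The reads on genes of the same library also stood apart, on the low side, with a gap of 0.946 of the range. The higher Sox9 value and the lower depth were found in the same library, and whether they are linked was not tested. These were 2 of 14 sets of 4 livers examined, and chance passes the limit in about 1 in 20. The difference between induction times was tested directly for Sox4, and the 7-day livers were higher than the 3-day livers by 2.64 on the log2 scale (limma adjusted p = 0.000139), at 10.99 to 16.5 eRPKM in 3 of 3 livers beside 0.986 to 2.77.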

How the results depend on the processing

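Sox4 kept its call against control and against 3 days in all 27 alternatives, with adjusted p up to 0.00714 and 0.00659 (limma). Prom1 at 7 days was not called with a pseudocount of 0.1 (log2 difference 3.19), no filter (2.92), median-ratio scaling (2.68), quantile normalization (2.55), no trend (2.92) or depth as a covariate (2.39), which left 1 member called. At an adjusted p under 0.05, 4 members were called at 7 days (Sox9 0.95 and Spp1 0.74 being added) and 3 between 7 and 3 days (Sox9 0.94, Prom1 2.53). limma-voom called 2 there (Prom1 2.79). Directions of uncalled differences turned as follows. At 3 days Sox9 was at -0.0004787 (pseudocount 1), -0.02129 (median-ratio) and -0.006016 (Xist covariate). Cd24a was at -0.01391 (quantile), -0.03021 (depth), -0.07472 (voom), -0.19 (libraries with more Xist) and -0.08958 (voom, median-ratio), Sox4 at 0.001632 and Epcam at -0.32 (libraries with more Xist). Between 7 and 3 days Spp1 was at -0.10 (median-ratio) and -0.08915 (voom, median-ratio) and Epcam at -0.03954 (quantile). The 6 genes called at 3 days became 3 (no filter), 12 (median-ratio), 0 (no trend), 1 (depth), 16 (Xist covariate), 1 (voom), 0 (2 groups only) and 41 (adjusted p under 0.05). At 7 days the 3383 became 1676 (depth), 5390 (adjusted p under 0.05) and 2128 (libraries with more Xist), and between 7 and 3 days the 2753 became 1679, 5085 and 1424. Without the 3 libraries that carry an MF mark, Prom1 at 7 days was not called (3.121), leaving 1 member called, 41 genes were called at 3 days and 883 between 7 and 3 days, and Sox9 (-0.06824) and Cd24a (-0.5875) at 3 days and Cd24a between 7 and 3 days (0.3296) turned. The analyses of libraries with more Xist, of libraries with no MF mark and of voom with median-ratio scaling were chosen after seeing the data.

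Without each library in turn, genes called at 3 days ranged from 0 to 54 (54 without 3-day liver 1), at 7 days from 2057 to 3684 and between 7 and 3 days from 1412 to 3683, the lowest without 7-day liver 3. Members called ranged from 1 to 2 at 7 days and from 1 to 2 between 7 and 3 days. At 3 days Sox9 ranged from -0.22 to 0.21, Cd24a from -0.23 to 0.30 and Prom1 from -0.23 to 0.92. At 7 days Prom1 ranged from 2.56 to 3.37 and Cd24a from -0.26 to 0.24. Between 7 and 3 days Prom1 ranged from 1.995 to 3.14, Spp1 from -0.14 to 0.33 and Cd24a from -0.31 to 0.22. Same-numbered livers deviated together with r between -0.222 and 0.269, and differently numbered ones between -0.275 and 0.238, so the numbers do not pair them. Pairs of control and 3-day livers of the same Xist and Ddx3y kind had r of 0.148 to 0.269. Pairs of different kinds had -0.275 to -0.062, so deviations over all tested genes followed this division, which is not particular to Prom1. A replicate block called 3 genes at 3 days and left Cd24a at 0.01338 at 7 days. The causes were not tested. Epcam had few reads in every library, at most 24.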
